A study of Mus musculus with 5 samples.

Results

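The genes described here carry out single-strand break repair after base excision. They are 9 of the 23361 gene symbols measured by RNA-seq in mouse hippocampus, namely *Parp1*, *Xrcc1*, *Apex1*, *Polb*, *Lig3*, *Fen1*, *Lig1*, *Tdp1* and *Aptx*. They were chosen by symbol, as the AP endonuclease, polymerase, ligase, scaffold and end-processing genes of the pathway. The choice was not made by their values, but earlier results of these data were known. All 9 were found in the files and all 9 passed the filter on low values, a mean over libraries of 1 FPKM or more. FPKM counts sequenced fragments relative to the length of the transcript and to the depth of the library, so levels can be compared between genes.

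The genotypes were compared at 3 months of age. Control mice (n = 2) had the genotype Hdac1f/f, in which *Hdac1* is flanked by loxP sites and intact. *Hdac1* cKO mice (n = 3) had the genotype Hdac1f/f, Nestin-Cre. Both groups therefore carried the floxed allele, and the cKO group alone carried the Cre transgene, so that the effect of Cre itself and of the deletion cannot be told apart. Nestin-Cre acts in the neural lineage, and the study describes deletion in neurons and astrocytes while microglia keep HDAC1. The study follows the repair of oxidised guanine by the glycosylase OGG1 in mice without HDAC1. The comparison made here asks whether transcripts of the steps after the glycosylase differ between the genotypes in young hippocampus.

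Base excision repair starts when a glycosylase removes a damaged base and leaves an abasic site. APE1, encoded by *Apex1*, cuts the DNA backbone at that site and creates a single-strand break. In short-patch repair DNA polymerase beta (*Polb*) fills the gap and DNA ligase 3 (*Lig3*), held by the scaffold XRCC1, seals it. In long-patch repair several bases are replaced, the displaced flap is cut by FEN1 and the nick is sealed by DNA ligase 1 (*Lig1*). PARP1 detects the break and attracts XRCC1, while TDP1 and aprataxin (*Aptx*) clean blocked DNA ends before they are joined. Neurons do not divide, so they meet such breaks outside DNA replication, and inherited defects of TDP1 and aprataxin cause ataxia in humans.

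Expression of *Hdac1* was examined first, as a check of the labels. Its level was 8.95 and 13.1 FPKM in control mice, against 1.95, 3.12 and 3.37 FPKM in cKO mice, without overlap, and the cKO mean was 25.5% of the control mean. A stretch of chromosome 17 annotated as *Gm10093* matches 2004 nt of the *Hdac1* transcript at 98.8% identity, and a second stretch without an annotated exon matches 1894 nt at 95.3%. How reads were divided among these is not known. The 7 hippocampal neuron markers were all detected, with a summed level of 203 to 217 FPKM per library. Sequencing depth, estimated from repeated steps in the lowest values, was between 5140000 and 6770000 fragments per library, lowest in cKO 2. That estimate rested on 28 of 540 genes in control 1 and 38 of 562 in cKO 1, against 73 to 75 genes in the others. Depth and fragments per gene are therefore rough, and the study gives a larger mean number of reads per sample. By the repeated steps the libraries fall into 2 sets, each with both genotypes. Control 1 and cKO 1 (first set) share their steps, as do control 2, cKO 2 and cKO 3 (second set). In pairs within a set 24.6% to 28.4% of low genes had a ratio inside the same narrow window, against 3.71% to 4.64% across sets. No member of the pathway was among the low genes that define the sets.

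Levels of the 9 genes spanned a wide range. *Polb* was the highest, with 28.0 to 39.4 FPKM over the 5 libraries, and *Parp1* followed with 21.1 to 29.7 FPKM. *Apex1* lay between 9.24 and 11.3 FPKM and *Xrcc1* between 5.66 and 7.24 FPKM. Then came *Fen1* (3.38 to 6.09 FPKM), *Aptx* (3.58 to 4.67 FPKM), *Lig3* (3.25 to 4.16 FPKM) and *Tdp1* (2.24 to 4.18 FPKM). *Lig1*, the ligase of long-patch repair and of replication, was the lowest at 1.09 to 1.83 FPKM. By mean FPKM *Polb* stood at percentile 80.7 of the tested genes, *Apex1* at percentile 47.9 and *Lig1* at percentile 5.30. The ranges of neighbours in this order were separate between *Parp1* and *Apex1*, between *Apex1* and *Xrcc1*, and between *Tdp1* and *Lig1*. *Polb* overlapped with *Parp1*, and from *Xrcc1* down to *Tdp1* each range overlapped with that of its neighbour. *Fen1* was above *Aptx*, and *Lig3* above *Tdp1*, in 4 of 5 libraries. *Fen1* had rank 5 in the control means and rank 6 in the cKO means, having changed places with *Aptx*, and the other 7 ranks were equal in both groups.

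**Figure D1:**
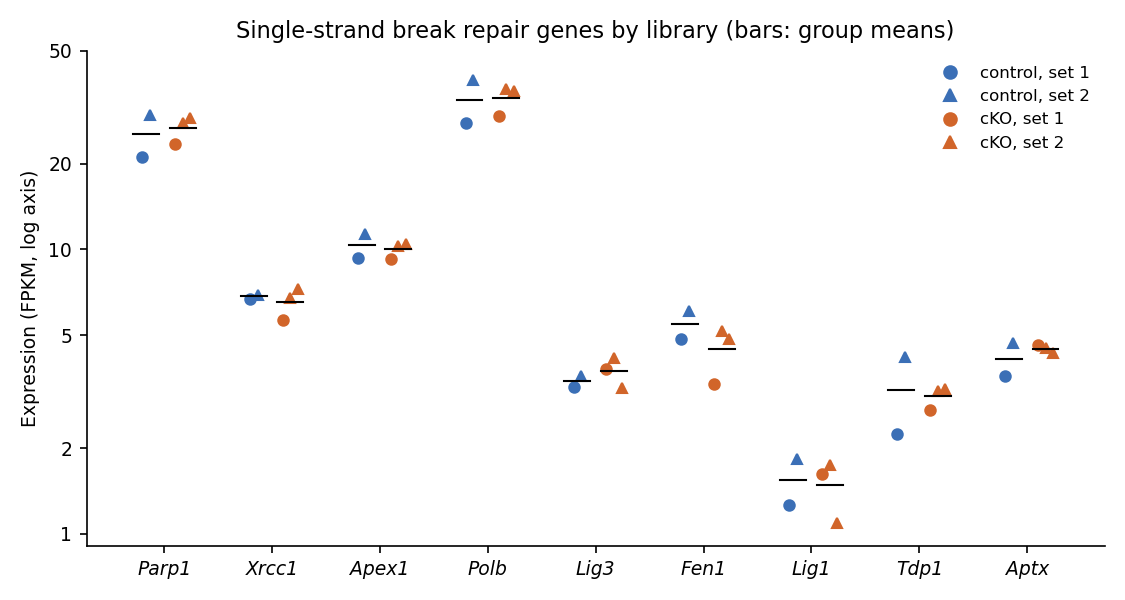
Expression of the 9 genes in each library, in FPKM on a log axis. Points are libraries (circles for the first set, triangles for the second, blue for control and orange for cKO) and bars are group means. *Polb* and *Parp1* lie above 20 FPKM in every library and *Lig1* below 2 FPKM, and the points of both genotypes overlap for each gene.

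The study reports guanine-rich motifs at promoters of genes lower in aged cKO mice, by an enrichment search over wider windows. The 9 genes were chosen by pathway and read in young mice, so their promoters do not test that finding. Short stretches are shown for the genes with a motif upstream of an annotated start. RefSeq promoter windows (GRCm38.p6, 250 bases before to 50 after a start) were given for 8 of the 9 genes, with 12 windows in all and none for *Polb*. The GC box GGGCGG, the core bound by SP and KLF factors, was searched on both strands. It was present in 7 of the 12 windows, of the 6 genes *Apex1*, *Aptx*, *Lig1*, *Lig3*, *Parp1* and *Tdp1*, and in 35.7% of all 32851 windows. The E-box CACGTG was present in 5 of the 12 windows, 1 each of *Apex1*, *Fen1*, *Lig1*, *Lig3* and *Parp1*, and in 7.15% of all windows. The motif of NRF1 was also searched, and was present in 1 of the 12 windows (*Tdp1*) and in 0.971% of all windows. The motifs were chosen after these sequences were seen, so nothing is read from the members' counts against the shares of all windows. The GC box and the E-box share no base in any of the 12 windows. In the following 30-base stretches, printed 5′ to 3′ on the strand of the gene, capitals mark the motif, with CCGCCC being the GC box read on the other strand.
Parp1, chr1:180568844-180568873, plus strand: cgtgctgaagccCCGCCCtatgagctgagg
Apex1, chr14:50924919-50924948, plus strand: cagaaccacgtggGGGCGGagccctcgaat
Lig1, chr7:13278796-13278825, plus strand: cgcgctactcgcaggcccCCGCCCttgctc
Aptx, chr4:40702998-40703027, minus strand: tttctttcttctGGGCGGattaggctccac
Lig3, chr11:82781076-82781105, plus strand: agaacagcgaccCACGTGgcgaccggaggg
Fen1, chr19:10203922-10203951, minus strand: cgcctggcagatCACGTGacgagagcgcgg
Tdp1, chr12:99884488-99884517, plus strand: cgcgcatgcgcgggcgcgccgcgGGGCGGa
The GC box of *Apex1* lies 17 to 12 bases before the start, beside an E-box 24 to 19 bases before it. *Parp1* has 4 GC boxes in its window. Neither window of *Fen1* holds the GC box, and the single window of *Xrcc1* holds neither of these. A match of letters is a description of the window and not evidence of binding.

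Across the 9 genes no genotype difference was detected. Whole hippocampus holds many cell types, so that fewer cells of a type and less RNA per cell cannot be told apart. The test was limma on log2(FPKM + 1) with all 5 libraries, fitted over 12740 genes, and adjusted p-values are Benjamini-Hochberg values over all of them. Of the members 4 were higher and 5 lower in cKO, and their log2 fold changes ran from −0.25 (*Fen1*) to 0.10 (*Aptx*), with a median of −0.02 against 0.01 over all tested genes. That median was −0.16 without control 1, 0.14 without control 2 and 0.03 without cKO 1, so its sign rested on which libraries were kept. None of the 9 genes reached an unadjusted limma p of 0.05 (0 of 9, where 4.36% of all tested genes did). None met the study's rule of a 1.5-fold change with p under 0.05, applied here to the limma fit. That was 0 of 9, against 0.659% of all genes, 0.4% higher and 0.259% lower. These shares are not the study's own result. Its list for young mice came from its own processing and held more lower than higher genes. The adjusted limma p-values of the 9 genes lay between 0.955 and 0.990. *Hdac1* itself had an adjusted limma p of 0.219 in the same fit and of 0.00389 with the set of libraries as a block, so a miss of that threshold does not show that a gene did not change. An adjusted p under 0.05 was reached by 0.00785% of all genes, which is 1 gene. The control and cKO libraries overlapped in all 9 genes, while they did not overlap in 20.4% of all tested genes. The 95% limma interval lay inside a 1.5-fold change either way for 8 of 9 members, against 82.3% of all tested genes, the exception being *Fen1*. With a pseudocount of 0.1 in place of 1 this held for 6 of 9, against 68.7% of all tested genes.

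**Figure D2:**
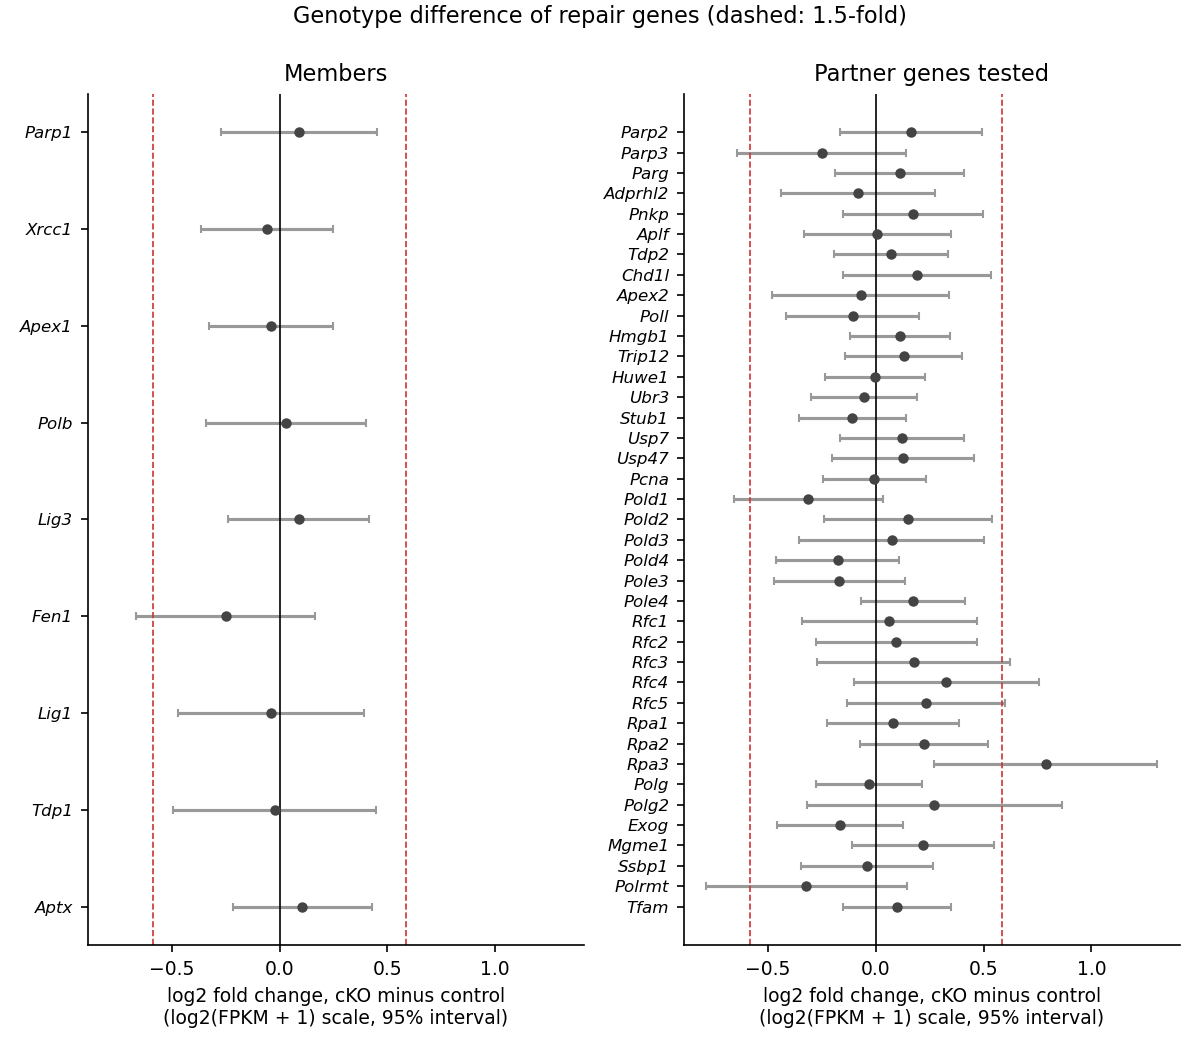
Genotype difference of the 9 members (left) and of the tested partner genes (right). Points are log2 fold changes (cKO minus control, log2(FPKM + 1) scale), bars are 95% limma intervals, and dashed lines mark a 1.5-fold change either way. The intervals of all 9 members include 0, and *Rpa3* among the partners stands apart at 0.79.

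The break sensor and the scaffold overlapped between the genotypes. *Parp1* (chromosome 1, 182499086 to 182531384, plus strand, mm9), whose product makes poly(ADP-ribose) chains at breaks, was at 21.1 and 29.7 FPKM in control mice, against 23.6, 27.8 and 29.1 FPKM in cKO mice. The lowest library was control 1 and the highest control 2, so that the cKO values all lay between the controls. The means were 25.4 ± 6.02 FPKM (SD, n = 2) and 26.8 ± 2.87 FPKM (SD, n = 3), and the log2 fold change was 0.09 (limma 95% interval −0.27 to 0.45, adjusted p = 0.979). *Xrcc1* (chromosome 7, 25332169 to 25358457, plus strand) was at 6.72 and 6.94 FPKM in control mice, against 5.66, 6.75 and 7.24 FPKM in cKO mice. Here the cKO libraries held both the lowest and the highest value, and the log2 fold change was −0.06 (limma 95% interval −0.36 to 0.25, adjusted p = 0.989). About 544 to 753 fragments per library lay behind the values of *Parp1* and 75 to 99 behind those of *Xrcc1*.

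Genes of incision and short-patch repair overlapped between the genotypes. *Apex1* (chromosome 14, 51544643 to 51546814, plus strand) was at 9.37 and 11.3 FPKM in control mice, against 9.24, 10.3 and 10.5 FPKM in cKO mice, and the log2 fold change was −0.04 (limma 95% interval −0.33 to 0.25, adjusted p = 0.989). Its lowest values came from control 1 and cKO 1, and the other 3 libraries exceeded 10 FPKM. In the GENCODE vM1 annotation 877 of its 1422 exonic nt overlap exons of *Tmem55b* on the opposite strand. *Tmem55b* was at 22.7 to 24.7 FPKM, and since strand use in the counting is not given in the sources used here, reads of the overlapping stretch cannot be told apart.

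*Polb* (chromosome 8, 23738591 to 23763909, minus strand), the gap-filling polymerase, was at 28.0 and 39.4 FPKM in control mice, against 29.4, 36.8 and 36.1 FPKM in cKO mice. The controls differed from each other by more than the genotype means, which were 33.7 ± 8.10 FPKM (SD, n = 2) and 34.1 ± 4.08 FPKM (SD, n = 3). Its log2 fold change was 0.03 (limma 95% interval −0.34 to 0.40, adjusted p = 0.989), and it turned to −0.03 with the set of libraries as a block. *Lig3* (chromosome 11, 82594610 to 82617776, plus strand), the ligase that works with XRCC1 and also serves mitochondria, was at 3.29 and 3.60 FPKM in control mice, against 3.80, 4.16 and 3.25 FPKM in cKO mice. cKO 3 was the lowest and cKO 2 the highest of all 5, and the log2 fold change was 0.09 (limma 95% interval −0.24 to 0.41, adjusted p = 0.976). Of the 7281 exonic nt of *Lig3*, 1826 overlap exons of *Rffl* on the opposite strand, which was at 3.13 to 3.42 FPKM.

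The flap endonuclease had the lowest log2 fold change of the 9. *Fen1* (chromosome 19, 10273622 to 10278659, minus strand) was at 4.82 and 6.09 FPKM in control mice, against 3.38, 5.18 and 4.84 FPKM in cKO mice. The cKO mean was 81.8% of the control mean (4.46 ± 0.958 FPKM, SD, n = 3, against 5.46 ± 0.897 FPKM, SD, n = 2), but cKO 2 and cKO 3 lay above control 1, so the groups overlapped. The log2 fold change was −0.25 (limma 95% interval −0.67 to 0.17), and limma gave an unadjusted p = 0.203 and an adjusted p = 0.955. Within the sets it was −0.41 in the first and −0.24 in the second, and in both of them every cKO library was below the control. With the set as a block it was −0.31, where limma gave an unadjusted p = 0.0311 and an adjusted p = 0.498, so *Fen1* did not pass over all genes. It was the 1 of 9 members under an unadjusted p of 0.05 in that fit, against 9.34% of all tested genes. Of its 2422 exonic nt, 1909 overlap the lincRNA *Gm10143* on the opposite strand, which has no row of its own in the files. About 54 to 95 fragments per library lay behind its values.

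*Lig1* (chromosome 7, 13862632 to 13896782, plus strand), which seals long patches and joins replication fragments, was at 1.27 and 1.83 FPKM in control mice, against 1.62, 1.74 and 1.09 FPKM in cKO mice. cKO 3 was the lowest and control 2 the highest, and the log2 fold change of −0.04 (limma 95% interval −0.47 to 0.39, adjusted p = 0.989) lay well within that spread. With a rough estimate of 22 to 38 fragments per library, counting error alone was about 21.3% in the lowest library, so a small difference was not detectable at this depth. The genotype difference of *Lig1* was 0.21 within the first set and −0.24 within the second, of opposite sign. Because *Fen1* and *Lig1* also serve replication, markers of proliferating cells were read beside them. Of 13 markers 8 were tested, with 5 higher and 3 lower, 0 at an unadjusted limma p under 0.05 and a median log2 fold change of 0.04. Their summed level was 24.7 and 25.8 FPKM in control mice, against 24.0, 27.9 and 26.6 FPKM in cKO mice. *Mki67*, *Top2a*, *Cdk1*, *Ccnb1* and *Rrm2* were under the filter, and *Cdk1* was listed at 0 in at least 1 library. The part of cell division in the values of *Fen1* and *Lig1* was not tested.

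The end-processing genes showed wide controls. *Tdp1* (chromosome 12, 101122727 to 101193429, plus strand), which removes trapped topoisomerase 1 from DNA ends, was at 2.24 and 4.18 FPKM in the controls, the lowest and the highest of the 5 libraries. The cKO libraries lay between them at 2.73, 3.17 and 3.22 FPKM, and the log2 fold change stood at −0.02 (limma 95% interval −0.49 to 0.45, adjusted p = 0.990). Without control 1 it was −0.36 and without control 2 it was 0.31, so its direction rested on which control was kept. *Aptx* (chromosome 4, 40629415 to 40650227, minus strand), which removes AMP from aborted ligations, was at 3.58 and 4.67 FPKM in control mice, against 4.63, 4.49 and 4.33 FPKM in cKO mice. Its cKO libraries were close together (4.48 ± 0.151 FPKM, SD, n = 3) and below control 2, and its log2 fold change was 0.10 (limma 95% interval −0.22 to 0.43, adjusted p = 0.974). It was 0.30 within the first set and −0.07 within the second, of opposite sign.

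The levels were also compared between the sets of libraries, a comparison that was not planned. *Polb* alone of the 9 passed adjustment, and none did after median-ratio or quantile scaling. With genotype in the model, all 9 members were higher in the second set, as were 59.4% of all tested genes, with a median difference of 0.20 on the log2(FPKM + 1) scale against 0.05 over all genes. In that fit the size of the set difference exceeded that of the genotype difference in 8 of 9 members, against 61.3% of all tested genes, with *Lig3* the other way. *Polb* differed by 0.38 (limma 95% interval 0.20 to 0.55, adjusted p = 0.0484), and an adjusted p under 0.05 was reached by 3.09% of all genes. By limma *Parp1* differed by 0.35 (adjusted p = 0.0637), *Fen1* by 0.38 (adjusted p = 0.116) and *Tdp1* by 0.39 (adjusted p = 0.198). These 4 genes were under an unadjusted limma p of 0.05 and higher in the second set, against 14.2% of all genes (22.9% in either direction). The sets did not overlap in 6 of 9 members (*Parp1*, *Xrcc1*, *Apex1*, *Polb*, *Fen1* and *Tdp1*), and 26.1% of all tested genes were in this sense higher in the second set (40.1% did not overlap in either direction). For *Fen1* and *Xrcc1* the gap was narrow, with a highest value in the first set of 4.82 and 6.72 FPKM and a lowest value in the second of 4.84 and 6.75 FPKM. *Lig1*, *Lig3* and *Aptx* overlapped between the sets.

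The size of the set difference depended on how libraries were scaled. After median-ratio scaling, which brought the median set difference of all genes to −0.00036, the members' median was 0.15, 8 of 9 were higher in the second set and *Polb* had an adjusted limma p of 0.0669. After rescaling to a common total the median of all genes was 0.13 and that of the members 0.29, and *Polb* and *Parp1* passed an adjusted p of 0.05, which 8.63% of all genes did under that scaling. *Lig3* turned from 0.02 to −0.02 under median-ratio scaling. The sets were known only from the values, and what separated them in the laboratory or in the quantification is not given in the sources used here. Estimated depth was 6690000 and 6770000 fragments in the first set and 6600000, 5140000 and 6310000 fragments in the second, and its part in the difference was not tested.

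**Figure D3:**
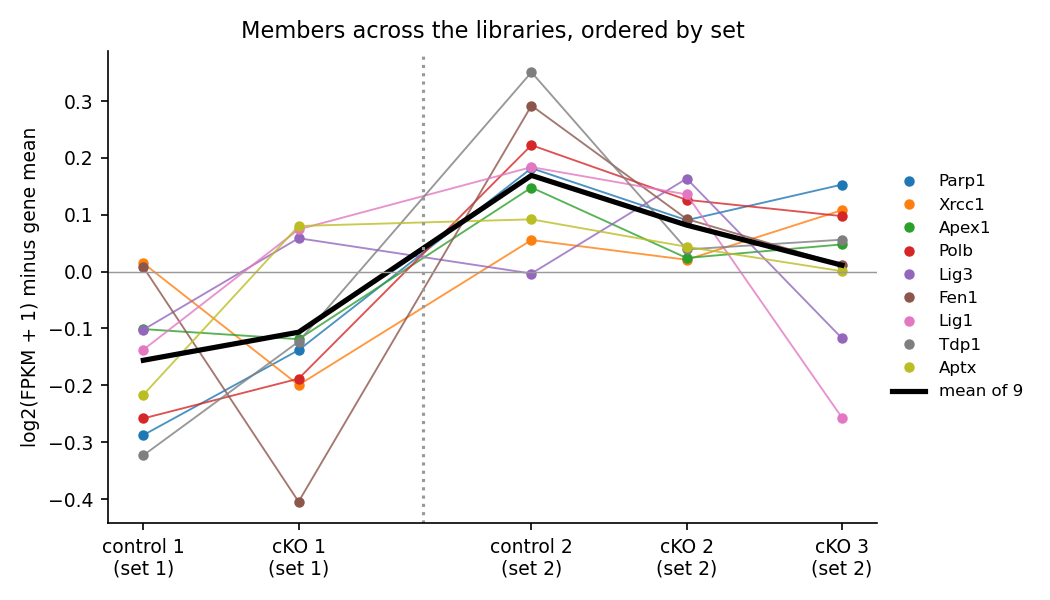
Each gene's log2(FPKM + 1) minus its own mean over the 5 libraries, with libraries ordered by set and the dotted line between the sets. Thin lines join the values of 1 gene and the thick line is the mean of all 9, which is −0.16 in control 1 and −0.11 in cKO 1 and lies above 0 in the libraries of the second set.

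Ratios of 2 genes within a library do not depend on its scaling, and 4 were compared. The ratio of *Fen1* to *Polb*, a long-patch and a short-patch gene, was 0.173 and 0.155 in control mice, against 0.115, 0.141 and 0.134 in cKO mice. Every cKO library was below both controls. The log2 ratio differed by −0.34 (two-sided exact permutation p = 0.1, the smallest that 2 against 3 libraries allow, and 0.4 adjusted over the 4 ratios), by −0.59 within the first set and by −0.17 within the second. The ratio of *Lig1* to *Lig3* was 0.385 and 0.509 in control mice, against 0.428, 0.418 and 0.335 in cKO mice, and these overlapped (exact permutation p = 0.6, adjusted 0.6). *Lig1* was thus below *Lig3* per length of transcript in every library. *Xrcc1* to its partner *Lig3* stood at 2.04 and 1.93 in control mice, against 1.49, 1.62 and 2.23 in cKO mice (exact permutation p = 0.5, adjusted 0.6). *Parp1* to *Parp2*, the second polymerase that responds to breaks, was 3.18 and 3.56 in control mice, against 3.16, 3.23 and 3.09 in cKO mice (exact permutation p = 0.2, adjusted 0.4), and *Parp1* was the higher of the pair in all 5 libraries.

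**Figure D4:**
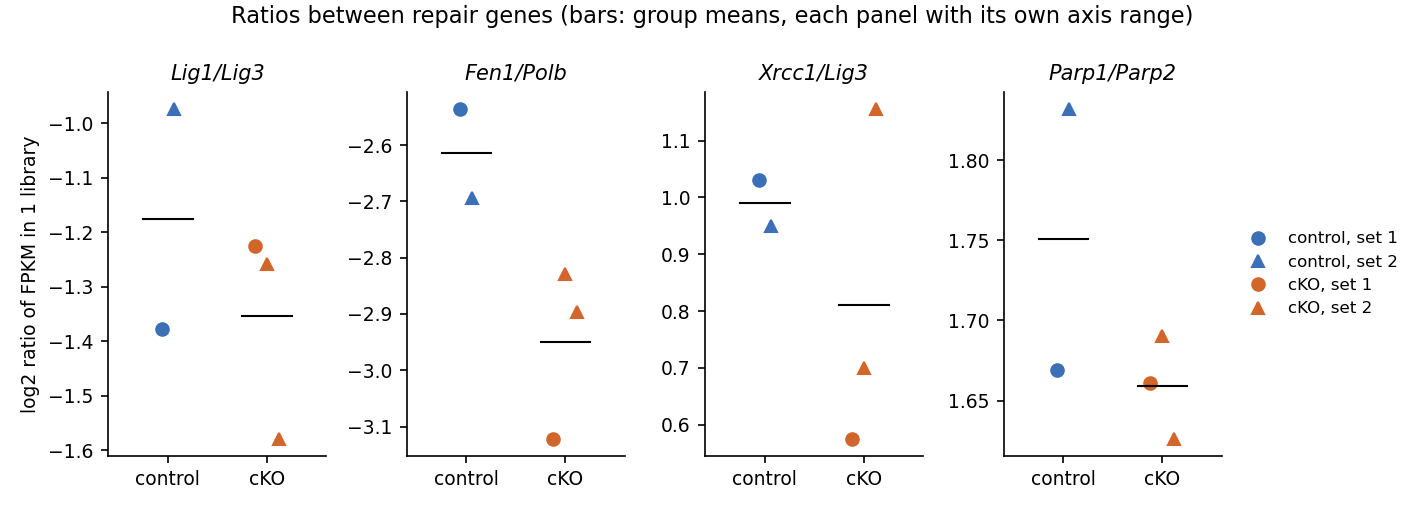
Log2 ratio of FPKM between 2 genes of the same library, with 1 panel and axis range per ratio. Points are libraries (circles for the first set, triangles for the second) and bars are group means. For *Fen1* to *Polb* the cKO libraries lie below both controls, and the groups overlap in the *Lig1* to *Lig3*, *Xrcc1* to *Lig3* and *Parp1* to *Parp2* panels.

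Other genes of the pathway were read from 3 lists of partners. Of 17 genes of short-patch repair and strand-break signalling all were tested, 10 higher and 7 lower in cKO, with a median log2 fold change of 0.07 and 0 at an unadjusted limma p under 0.05. They ran from *Parp3* (−0.25, adjusted p = 0.955) to *Chd1l* (0.19, adjusted p = 0.955), a chromatin remodeller recruited by poly(ADP-ribose). *Parp2* was at 6.65 and 8.33 FPKM in control mice, against 7.45, 8.61 and 9.41 FPKM in cKO mice (log2 fold change 0.16 by limma, adjusted p = 0.956). Of 7 mitochondrial repair genes 3 were higher and 4 lower, with 0 at that level, from *Polrmt* (−0.32), the mitochondrial RNA polymerase, to *Polg2* (0.27), the accessory subunit of the mitochondrial DNA polymerase, which holds a stretch of about 200 nt found elsewhere in the genome at 95% identity. When 1 library was left out, *Parp3* lay between −0.33 (without cKO 1) and −0.15 (without cKO 2), and *Chd1l* between 0.09 (without cKO 2) and 0.27 (without control 2). With a pseudocount of 0.1 *Parp3* was at −0.43. *Parp2* lay between 0.02 (without control 1) and 0.31 (without control 2) when 1 library was left out. *Polrmt* lay between −0.12 and −0.52 for the same libraries, and was at −0.50 without cKO 1 by limma (unadjusted p = 0.0153, adjusted p = 0.630). *Polg2* turned to −0.11 without control 1 and stood at 0.65 without control 2 by limma (unadjusted p = 0.0335, adjusted p = 0.859). *Twnk* was not found by that symbol.

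In the list of long-patch genes a single gene stood out. Of 18 genes 15 were tested (*Pole*, *Pole2* and *Dna2* were under the filter), 11 higher and 4 lower, with a median log2 fold change of 0.10 and 1 past the study's rule, against 0.659% of all genes. That gene was *Rpa3*, the smallest subunit of the single-strand binding protein RPA (chromosome 6, 8205936 to 8209173, minus strand). It was at 9.21 and 6.76 FPKM in control mice, against 11.9, 20.1 and 12.4 FPKM in cKO mice, without overlap. The log2 fold change was 0.79 (limma 95% interval 0.27 to 1.31), and limma gave an unadjusted p = 0.00784 and an adjusted p = 0.955 over all genes, so it failed the correction. Within the sets it was 0.34 and 1.11, and without control 2 it was 0.59 with an unadjusted limma p of 0.0538. The other RPA subunits stood at 0.08 (*Rpa1*) and 0.22 (*Rpa2*), and *Pold1*, the catalytic subunit of DNA polymerase delta, was the lowest of the list at −0.31 by limma (adjusted p = 0.955). *Pcna*, the clamp that tethers polymerase delta, FEN1 and ligase 1, was at 44.4 and 45.7 FPKM in control mice, against 41.8, 49.1 and 43.9 FPKM in cKO mice.

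Markers of the cell types in the tissue were read beside these genes. Of 12 neuron markers 11 were lower in cKO and 2 of them at an unadjusted limma p under 0.05 (4.36% of all tested genes), with a summed level of 2290 and 2467 FPKM in control mice, against 2205, 2249 and 2370 FPKM in cKO mice. Of 10 astrocyte markers 8 were higher, 2 of them at that level, with sums of 2755 and 2772 FPKM against 2996, 3041 and 3154 FPKM. The median log2 fold change of the 10 was 0.16, and the lowest was −0.04 (*Aldoc*). Of the 10 markers, 1 met the study's rule of fold and p, against 0.659% of all genes. It was *Aqp4*, the water channel of astrocyte endfeet, named here after its values were seen, at 54.4 and 54.4 FPKM in control mice, against 89.4, 98.4 and 94.6 FPKM in cKO mice. Its log2 fold change was 0.78 by limma (unadjusted p = 2.75e-05, adjusted p = 0.175). With the set as a block its adjusted limma p was 0.0187. *Gfap*, *Slc1a2*, *Slc1a3* and *Gja1* were also under an unadjusted limma p of 0.05 in that fit, and higher in cKO. Among neuron markers *Nefm*, *Stmn2* and *Eno2* were, and lower in cKO. No other marker of either list was, while 9.34% of all tested genes were. Of the markers named here only *Aqp4* passed an adjusted p of 0.05. Sums of microglia markers (9 genes, 231 and 273 FPKM against 227, 239 and 268 FPKM), of oligodendrocyte markers (8 genes, 1883 and 1614 FPKM against 1888, 1588 and 2051 FPKM), of their precursors (4 genes, 19.7 and 26.7 FPKM against 20.2, 25.4 and 26.3 FPKM) and of endothelial markers (6 genes, 49.3 and 45.4 FPKM against 41.2, 36.8 and 58.6 FPKM) overlapped between the genotypes. The sums of precursor, microglia and proliferating cell markers, and of the short-patch and long-patch partners, were lowest in control 1 and cKO 1, as the members' mean was. Those of neuron, astrocyte, oligodendrocyte, endothelial, choroid plexus and hippocampal neuron markers, and of the mitochondrial partners, were not. Choroid plexus markers (6 genes) varied most, with sums of 165 and 6.31 FPKM in control mice, against 74.2, 603 and 24.8 FPKM in cKO mice, and *Folr1* and *Kcnj13* among them were listed at 0 in at least 1 library. The part of cell type in the members' values was not tested.

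The 3 tested genes whose profile over the 5 libraries came closest to the mean profile of the members were *Smarca2*, *Cpsf2* and *Mertk*. The measure was the root mean square distance between log2(FPKM + 1) values after each gene's mean was taken off, and it was 0.0116, 0.0146 and 0.0164 in that order. *Smarca2*, a chromatin remodelling ATPase, was at 38.7 and 49.7 FPKM in control mice, against 40.8, 46.2 and 44.6 FPKM in cKO mice. Like the members' mean, it was lowest in control 1 and cKO 1 and highest in control 2. With 5 libraries and 12740 genes some profiles come close by number alone, and nothing is read from these names.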

How the data were processed

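Values were FPKM, which the authors deposited with 1 file per library. Per the labels and the study's methods, libraries were made from total RNA with a TruSeq kit, aligned with Tophat2 to mm9 and quantified with Cufflinks 2.0.0. Members and gene lists were chosen with earlier results of these data known. FPKM are not read counts, so limma 3.58.1 (R 4.3.3; lmFit, eBayes with trend) was run on log2(FPKM + 1) for the 12740 genes whose mean reached 1 FPKM, two-sided, with genotype as the only term. The fit was tested on simulated data with independent noise and no sets of libraries, so that test does not cover the set differences. Fold changes on this scale understate those of low genes. Sets and approximate depth came from genes under 0.3 FPKM (windows of 0.05 log2, sets sharing over 10%), and depth used genes with a single transcript of at least 1000 nt. Fragments per gene are FPKM times the longest transcript times that depth. Coordinates are 1-based from GENCODE vM1 (NCBIM37, the build of mm9). Copies were sought with blastn 2.17.0 (at least 95% identity over 200 nt). *Lig1* had 1 such match of 211 nt outside annotated exons and no other member had any. Promoter motifs were chosen after the sequences were seen. Named partners were those with an unadjusted p under 0.05, the extremes of each list and *Parp2*. Values of *Rpa1*, *Rpa2* and *Pcna* were added after they were seen. Alternatives were other pseudocounts, filters, scalings, blocks and leaving out each library.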

Additional observations from a re-analysis of the deposited data

How the results depend on the processing

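No member passed an adjusted p of 0.05 in limma for genotype under any alternative run, and their adjusted p-values were 0.447 or higher. Members with an unadjusted p under 0.05 numbered 0 in every alternative except the set block, where the number was 1 (*Fen1*, −0.31, unadjusted p = 0.0311), against 9.34% of all genes in that fit. *Lig3* stayed above 0 and *Fen1* below 0 under all alternatives with a test. *Polb* turned to −0.035 after rescaling to a common total, to −0.013 with the replicate block and to −0.033 with the set block, and *Lig1* turned to 0.082 with the replicate block. Leaving out 1 library at a time, log2 fold changes ranged from −0.16 to 0.085 for *Apex1*, −0.12 to 0.029 for *Xrcc1*, −0.21 to 0.27 for *Polb*, −0.20 to 0.12 for *Lig1*, 0.024 to 0.16 for *Lig3*, −0.39 to −0.098 for *Fen1*, −0.36 to 0.31 for *Tdp1*, −0.050 to 0.26 for *Aptx*, −0.15 to 0.32 for *Parp1*, 0.019 to 0.31 for *Parp2*, −0.33 to −0.15 for *Parp3*, 0.091 to 0.27 for *Chd1l*, −0.52 to −0.12 for *Polrmt* and −0.11 to 0.65 for *Polg2*. The median of the members ranged from −0.16 (without control 1) to 0.14 (without control 2) in the same way, and was −0.02 with all libraries, 0.15 within the first set and −0.11 within the second. The log2 ratio of *Lig1* to *Lig3* ranged from −0.38 to 0.024, and that of *Fen1* to *Polb* from −0.41 to −0.25. Genes past the study's rule numbered 84, and 142 with a pseudocount of 0.1, 43 with a mean of at least 5 FPKM, 133 with the replicate block and 92 to 231 when 1 library was left out. After rescaling to a common total 51 were higher and 73 lower, in place of 51 and 33. All these counts come from limma fits and are not the study's own counts. Set differences of *Lig3* were −0.020 after median-ratio scaling and −0.0017 after quantile normalization. The comparison of sets and these scalings were added after seeing the data. *Pold1* had an unadjusted p of 0.0496 after rescaling to a common total and of 0.0298 in limma without the trend. The cause of these changes was not tested. A minimum mean of 5 FPKM left *Fen1*, *Aptx*, *Lig3*, *Tdp1* and *Lig1* untested.

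Replicate numbers are shared by the titles of both groups. Deviations from the group means correlated across genes at r = 0.402 for number 1 and r = 0.269 for number 2, but each of these pairs also lies inside a set, and 2 pairs do not settle whether numbers pair the samples. With the replicate block cKO 3 had no control of its number, so log2 fold changes equalled those without cKO 3. Under the block the members' median was −0.01 and *Fen1* was at −0.31 by limma (unadjusted p = 0.0543, adjusted p = 0.447). The adjusted limma p of *Hdac1* was 0.219 without a block and 0.0115 under this block.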
